A study of Mus musculus with 72 samples.

Results

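Chemokine ligands and chemokine receptors were followed in liver and lung of irradiated mice. The genes were taken by name: a mouse symbol that starts with Ccl, Cxcl, Ccr or Cxcr followed directly by a digit, with at least 1 array probe well above background on at least 1 of 36 mRNA arrays. Of 23787 genes named on the array, 50 carry such a symbol and 47 of these passed, namely 20 CC ligands, 10 CC receptors, 11 CXC ligands and 6 CXC receptors. Just inside the threshold lay Ccl1, Ccr1l1 and Ccr4, each well above background on 1 array at 6.01, 5.77 and 5.15 log2 units, whereas Ccl22, Ccr1 and Cxcl3 were well above background on 0 of 36 arrays and are not described further.

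Chemokines are small secreted proteins that attract leukocytes, and their receptors are G protein-coupled receptors on the cells they attract. The CC and CXC classes are named after the arrangement of the first cysteines of the ligand. Some ligands are made at a steady rate and hold lymphocytes in place, such as Cxcl13 for Cxcr5 or Ccl19 and Ccl21 for Ccr7, while others are induced in inflammation, such as Cxcl9 and Cxcl10 for Cxcr3 or Cxcl1 for Cxcr2.

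Female C57BL/6 J mice of 6 to 8 weeks received whole body X-rays at 0 (unirradiated), 1, 2, 4, 8 or 12 Gy, with 3 mice per dose, and liver and lung were collected 48 h later. Each of the 12 tissue and dose groups holds 3 arrays, and the labels name no transgene or deletion in any of them. Liver and lung arrays carry the same 18 sample numbers, used here as mouse numbers, but the labels do not say whether a number stands for the same animal in both tissues. RNA was hybridised to 1-colour Agilent arrays, and levels are given as log2 of the background-corrected, quantile-normalized intensity within a tissue. Levels of different genes come from different probes and are not set against each other.

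Across the 36 arrays, 46.13% to 53.99% of spots in liver and 54.14% to 63.99% in lung were well above background. Tissue labels matched their markers: the mean of 15 hepatocyte genes was 17.78 to 17.93 in every liver and that of 10 lung epithelial genes 15.69 to 16.06 in every lung. Cdkn1a, a p53 target that rises in irradiated tissue, went from a mean of 6.47 at 0 Gy to 12.79 at 12 Gy in liver and from 11.58 to 15.23 in lung. Doses were unevenly spread over slides. In lung, 1 slide held 0 and 1 Gy, another held 2 and 4 Gy with 2 of the 3 mice at 8 Gy, and the last held the remaining 8 Gy mouse with all 12 Gy mice and was dimmer (54.14% to 54.81% of spots well above background), so that in lung 2 to 12 Gy against 0 Gy cannot be told apart from slide. In liver, 0 and 1 Gy shared a slide with 2 of the 3 mice at 2 Gy, while 4 to 12 Gy lay on the other 2 slides. One lung array, 0 Gy mouse 21, stood apart from the other 17, and results that rest on it are given with and without it.

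Of the 47 genes, 18 were well above background on all 36 arrays. By the probe used for each gene, the brightest one, liver arrays gave such a signal for 36 genes and lung arrays for 45, with 11 genes seen in lung only and 2 (Ccr1l1 and Ccr4) in liver only. A gene seen in 1 tissue entered through that tissue, so its difference between the tissues is not independent of how it was chosen. The 11 were Ccl1, Ccl3, Ccl20, Ccl28, Cxcl2, Cxcl5, Cxcl15, Cxcl17, Cxcr1, Cxcr2 and Cxcr4. A second probe was well above background on 2 liver arrays for Cxcr4 (both at 1 Gy) and on 1 for Ccl28 (at 8 Gy).

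With dose, most called changes in chemokine and receptor mRNA were decreases. A gene is called here when its log2 fold change exceeds 1 in size and its limma p-value, Benjamini-Hochberg adjusted over all probes of the comparison, is below 0.05. In lung, called decreases numbered 0 of 45 tested genes at 1 Gy, 2 (4.44%) at 2 Gy, 7 (15.6%) at 4 Gy, 11 (24.4%) at 8 Gy and 15 (33.3%) at 12 Gy. Over all 43979 probes tested in lung, 0.0114%, 0.373%, 1.22%, 1.99% and 4.3% were called lower at those doses. Called increases were 0 up to 8 Gy and 3 (6.67%) at 12 Gy, beside 0.0114%, 0.0705%, 0.239%, 0.525% and 3.03% of all probes.

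In liver, called decreases numbered 0 of 36 tested genes at 1 Gy, 1 (2.78%) at 2 Gy, 3 (8.33%) at 4 Gy, 6 (16.7%) at 8 Gy and 7 (19.4%) at 12 Gy. Over all 38362 probes tested in liver, 0.0209%, 0.164%, 0.623%, 1.37% and 1.33% were called lower. At none of the 5 doses was a chemokine gene called higher in liver, where 0.013%, 0.0808%, 0.321%, 0.839% and 0.73% of all probes were. At an unadjusted limma p below 0.05, 1 Gy gave 6 decreases and 0 increases in liver and 5 decreases and 3 increases in lung, and 12 Gy gave 16 decreases and 1 increase in liver and 19 decreases and 7 increases in lung. Of all probes, 7.07% in liver and 5.52% in lung passed that unadjusted threshold at 1 Gy, and 20.5% and 35.2% at 12 Gy, in either direction. The 5 dose comparisons of a tissue share the same 3 unirradiated arrays.

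A linear dose trend, expressed as the fitted log2 change over 12 Gy, was called lower for 15 of 45 genes in lung (33.3%) and for 8 of 36 in liver (22.2%), and higher for 0 in lung and for 1 in liver (2.78%). All probes gave 4.35% lower and 2.7% higher in lung and 1.14% lower and 0.892% higher in liver. The median trend of the genes was -0.36 in lung and -0.52 in liver, where that of all probes was 0.081 and 0.0039. By class, the lung trend was called lower for 6 of 8 CC receptors, 4 of 6 CXC receptors, 3 of 20 CC ligands and 2 of 11 CXC ligands, and the liver trend for 1 of 10, 3 of 3, 2 of 16 and 2 of 7.

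**Figure D1:**
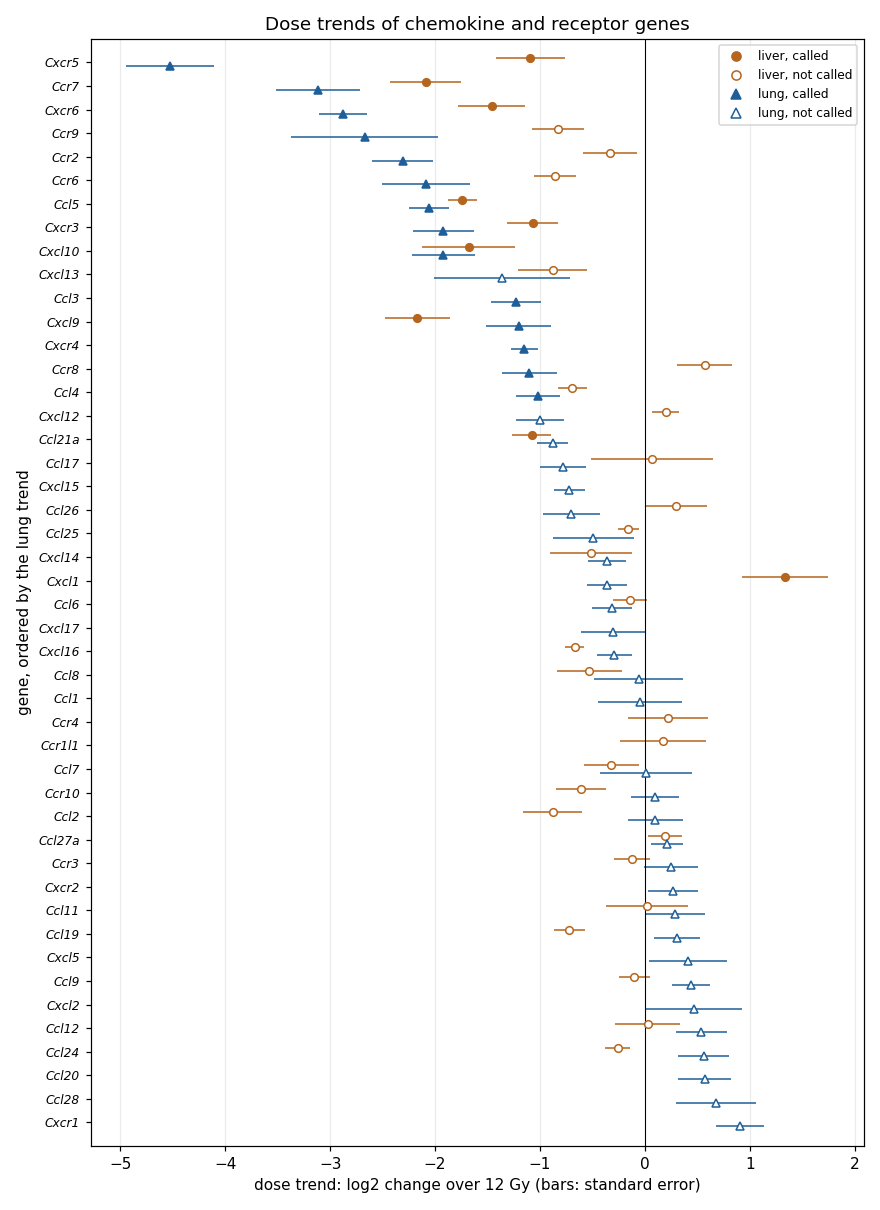
Dose trend of the chemokine and receptor genes reported singly (log2 change over 12 Gy, horizontal axis; bars are standard errors of the fit) in liver (circles) and lung (triangles), with filled symbols where the trend was called and genes ordered by the lung value. Cxcr5 lies farthest left in lung at -4.53, receptors fill most of the upper rows, and Cxcl1 in liver at 1.34 is the one filled symbol right of 0.

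Counting any dose or the trend, 12 genes were called in liver and 19 in lung. The 9 genes in both lists are 75% of the liver list and 47.4% of the lung list. The same counts and overlap over all probes were not computed, so this sharing cannot be called particular to chemokine genes. Slides bear on these counts. With slide as a fixed term the lung trend was called for 6 genes and the liver trend for 1, and with slide as a random block 11 genes were called at some dose in lung and 8 in liver. Lung trends that lost their call with the fixed term included Ccl3 (-0.32), Ccr2 (-1.95), Ccr6 (-1.87) and Ccr9 (-2.1). Their limma adjusted p was 0.988, 0.389, 0.599 and 0.908. Within the lung slide that held 2, 4 and 8 Gy, 33 of all 45 genes tested in lung were lower at 8 than at 2 Gy, with a median difference of -0.29 on the log2 scale (range -2.66 to 0.38). Within the liver slide that held 4 and 8 Gy, 23 of all 36 genes tested in liver were lower at 8 than at 4 Gy, with a median of -0.10 (-1.35 to 1.26). The other within-slide medians were smaller in size than the lung value of -0.29. In lung, 23 of 45 genes were lower at 12 than at 8 Gy (median -0.01, 1 array at 8 Gy). There, 26 of 45 were lower at 1 than at 0 Gy (median -0.07). In liver, 21 of 36 were lower at 2 than at 0 Gy (median -0.12). These within-slide values are given without a test and without the share over all probes.

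Receptors that bring lymphocytes into lymphoid tissue and gut fell in both tissues. Cxcr5, the receptor by which B cells and follicular helper T cells enter follicles, read 9.40, 9.83 and 10.21 in unirradiated lung, 8.84, 8.57 and 8.86 at 1 Gy and 7.82, 8.18 and 7.73 at 2 Gy. It read 7.12, 6.72 and 6.90 at 4 Gy, 5.27, 5.24 and 5.48 at 8 Gy, and 5.59, 4.56 and 5.39 at 12 Gy. No irradiated lung reached the unirradiated ones, and only the 8 and 12 Gy groups overlapped. The log2 fold change went from -1.06 ± 0.25 (SE, n = 3 per group, limma adjusted p = 0.218) at 1 Gy to -1.90 ± 0.25 (0.00174) at 2 Gy and -4.48 ± 0.25 (4.06e-08) at 8 Gy. At 12 Gy, where 0 of 3 arrays were well above background, the fall was given as at least 24.7-fold (fitted -4.63, adjusted p = 1.97e-08). Folds marked "at least" here and below raise each undetected array to the lowest level that any probe showed well above background on it. Those levels were 5.24, 4.36 and 5.42 on the 12 Gy lungs, so the fold lies close to the fitted value. Such folds are therefore no strict limits. The trend was -4.53 ± 0.42 (adjusted p = 7.06e-07), and -4.56 with slide as a fixed term (adjusted p = 0.00927).

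In liver, Cxcr5 was close to background from the start, at 5.10, 5.56 and 5.83 without irradiation and 4.38, 4.38 and 3.56 at 12 Gy. None of the arrays from 2 to 12 Gy was well above background. Falls of at least 2.37-fold at 4 Gy, 2.25-fold at 8 Gy and 2.10-fold at 12 Gy were called (adjusted p = 0.00974, 0.00157 and 0.00564), and the fitted trend of -1.09 passed narrowly (adjusted p = 0.0421), losing its call without any one of 9 arrays (-0.90 to -1.10). The 4 Gy call was lost without 0 Gy mouse 11 (-1.42) or 4 Gy mouse 4 (-1.32). At 2 Gy the fall of at least 2.30-fold missed the threshold (adjusted p = 0.0689).

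Ccr7 takes naive T cells and mature dendritic cells into lymph nodes. Unirradiated lungs gave 11.37, 11.73 and 12.11, the 4 Gy lungs 9.53, 9.12 and 9.65, the 8 Gy lungs 7.85, 8.78 and 8.62 and the 12 Gy lungs 8.38, 9.32 and 8.09. By this brightest probe, groups at every dose lay wholly below 0 Gy, while 8 and 12 Gy overlapped. A second probe overlapped with 0 Gy at 1 Gy and was also called lower at 4, 8 and 12 Gy. Lung Ccr7 was lower by a log2 fold change of -2.31 ± 0.31 at 4 Gy, -3.32 ± 0.31 at 8 Gy and -3.14 ± 0.31 at 12 Gy (limma adjusted p = 0.000619, 9.17e-06 and 1.24e-05), with a trend of -3.12 ± 0.40. Its value with slide as a fixed term was -3.74 and no longer passed (adjusted p = 0.0619).

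By its brightest probe, liver Ccr7 was the chemokine gene called at the lowest dose there. Its levels were 6.68, 6.97 and 7.09 at 0 Gy, 6.45, 6.17 and 5.86 at 1 Gy, 5.21, 5.39 and 5.91 at 2 Gy and 4.93, 5.26 and 5.03 at 4 Gy. By this probe, all irradiated livers lay below all unirradiated ones. The change was -0.75 ± 0.27 at 1 Gy (adjusted p = 0.589), -1.41 ± 0.27 at 2 Gy (0.0314) and -1.84 ± 0.27 at 4 Gy (0.0021). At 8 and 12 Gy, with 0 of 3 arrays well above background, the falls were at least 4.74-fold and 5.02-fold. The 2 Gy call was lost without mouse 11 or 21 of the 0 Gy livers (-1.38 and -1.31), mouse 3 or 13 of the 2 Gy livers (-1.26 and -1.36) or mouse 4 of the 4 Gy livers (-1.41). A second Ccr7 probe was not called at 2 Gy (-0.72 ± 0.35, limma adjusted p = 0.451) and overlapped with 0 Gy at 1 Gy. That probe was called lower at 4, 8 and 12 Gy.

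The ligands of these receptors moved less. Ccl21a, made by lymphatic endothelium and stroma, read 9.87, 10.11 and 10.17 in unirradiated liver and 8.60, 8.43 and 9.12 at 12 Gy, without overlap. The change was -1.33 ± 0.23 on the log2 scale (adjusted p = 0.00255) with a trend of -1.08 ± 0.19, which was -0.96 and below the threshold without 12 Gy mouse 16. In lung its trend was -0.88 ± 0.15 (adjusted p = 0.000331), short of the fold threshold. The mouse has several nearly identical Ccl21 genes, so the probe may read more than the one it is named for.

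Ccl19, the other Ccr7 ligand, had a liver trend of -0.72 ± 0.15 (adjusted p = 0.00387) and a lung trend of 0.31 ± 0.22 (adjusted p = 0.305), neither called. Cxcl13, the Cxcr5 ligand, ranged from 6.96 to 10.91 over the 18 lungs with no called change (trend -1.36 ± 0.65, adjusted p = 0.12). The lung 4 Gy group alone spanned 6.96, 9.68 and 10.43.

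Ccr6, found on B cells and on Th17 and regulatory T cells, read 8.93, 8.40 and 9.45 in unirradiated lung. It read 7.49, 7.91 and 7.48 at 1 Gy, 7.05, 7.02 and 7.17 at 2 Gy, and 6.12, 6.85 and 6.30 at 12 Gy. All irradiated lungs lay below the unirradiated ones. The change was -1.30 ± 0.24 at 1 Gy (adjusted p = 0.0885), -1.85 ± 0.24 at 2 Gy (0.00174) and -2.91 ± 0.24 at 8 Gy (2.54e-06). Liver Ccr6 was well above background on 1 of 3 unirradiated arrays and fell by at least 1.83-fold at 12 Gy (adjusted p = 0.0141), a call lost without mouse 11 or 21 at 0 Gy (-1.05 and -1) or mouse 16 at 12 Gy (-0.85). Its ligand Ccl20 was well above background on 1 lung array per dose and was not called.

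Ccr9 directs T cells to the thymus and small intestine. Unirradiated lungs read 7, 8.05 and 11.07, the last being mouse 21, against 6.59, 6.46 and 6.85 at 1 Gy, 5.37, 5.49 and 5.37 at 4 Gy and 4.85, 5.41 and 4.68 at 12 Gy. The groups did not overlap with 0 Gy at any dose. With all arrays the change was -3.29 ± 0.65 at 4 Gy, -3.31 ± 0.65 at 8 Gy and at least 10.2-fold lower at 12 Gy (fitted -3.72 ± 0.65). Without mouse 21 it was -2.11, -2.13 and -2.54 (adjusted p = 0.000814, 0.000349 and 5.61e-05), and 2 Gy became called at -1.50 (adjusted p = 0.0324). In liver Ccr9 fell by at least 2.11-fold at 4 Gy and 2.31-fold at 12 Gy (adjusted p = 0.0268 and 0.00609), from 5.72, 5.72 and 5.48 to groups with 0 of 3 arrays well above background. The 4 Gy call was lost without mouse 1 or 11 at 0 Gy (-1.04 each) or mouse 4 or 14 at 4 Gy (-1.02 and -0.92).

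**Figure D2:**
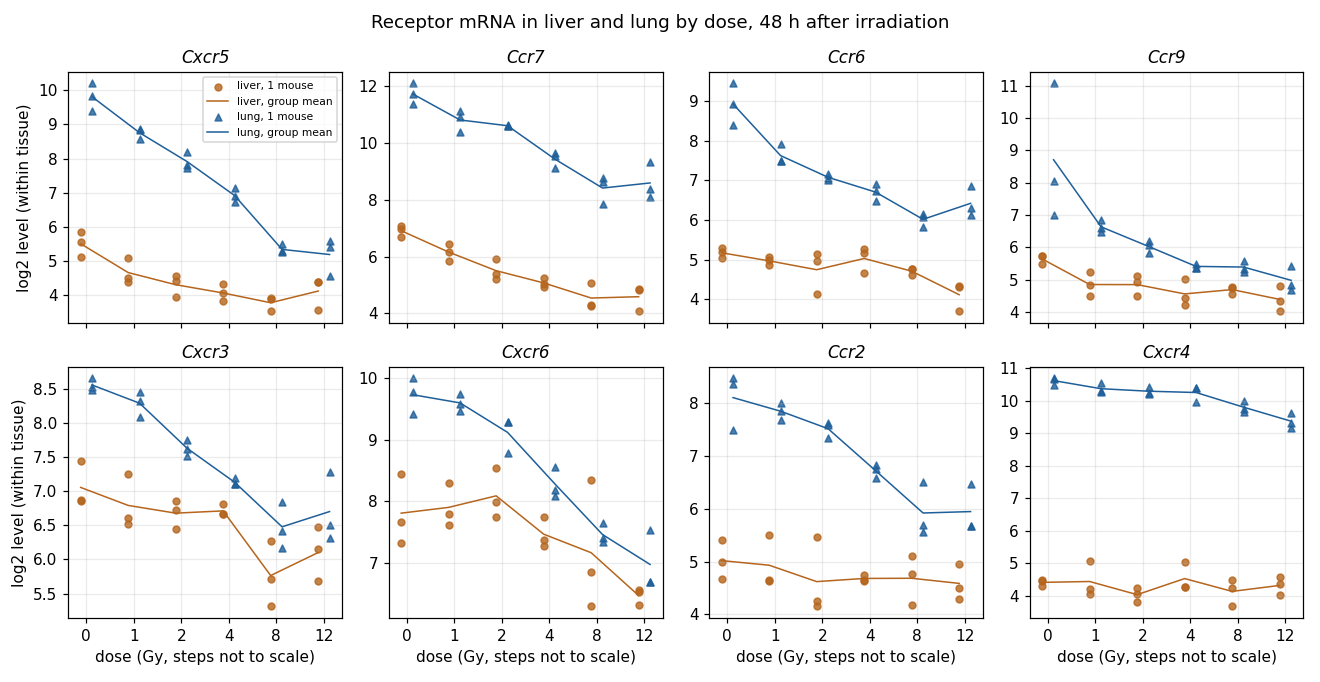
Level of 8 receptor genes (log2 intensity normalized within each tissue, vertical axes, which differ between panels) against dose in Gy (steps not to scale), with a point per mouse and lines through group means. Lung Cxcr5 falls from a mean of 9.81 to 5.18 and lung Ccr7 from 11.74 to 8.60, while Cxcr4 in liver stays at 3.68 to 5.07 by a probe that was well above background on no liver array.

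Receptors of effector T cells, NK cells and monocytes were first called in lung at 4 Gy (Cxcr3, Cxcr6 and Ccr2) or at 12 Gy (Ccr8). Cxcr3, carried by Th1 cells, activated CD8 T cells and NK cells, read 8.48, 8.53 and 8.65 in unirradiated lung and 7.10, 7.10 and 7.19 at 4 Gy. At 8 Gy it read 6.17, 6.42 and 6.84, and at 12 Gy 6.31, 7.28 and 6.51. Groups at 1 Gy and above did not overlap with 0 Gy, although 1 Gy differed by -0.27 ± 0.22 (adjusted p = 0.96). The lung change was -1.42 ± 0.22 at 4 Gy, -2.08 ± 0.22 at 8 Gy and -1.86 ± 0.22 at 12 Gy (adjusted p = 0.00171, 2.67e-05 and 5.79e-05), and the trend of -1.92 ± 0.29 was -2.19 with slide as a fixed term (adjusted p = 0.0303).

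In liver Cxcr3 was called at 8 Gy, at -1.30 ± 0.27 (adjusted p = 0.00805), with 7.44, 6.85 and 6.87 at 0 Gy against 5.31, 6.27 and 5.71. The 12 Gy livers, at 6.15, 5.68 and 6.47, differed by -0.95 ± 0.27 (adjusted p = 0.0437), short of the fold threshold. The trend of -1.07 ± 0.24 fell below that threshold without 0 Gy mouse 1 (-0.97) or 8 Gy mouse 5 (-0.95).

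Cxcr6 marks tissue-resident and liver-patrolling T and NKT cells and binds Cxcl16. Lung levels were 9.42, 9.77 and 9.99 at 0 Gy, 8.19, 8.09 and 8.56 at 4 Gy, 7.34, 7.40 and 7.65 at 8 Gy and 6.70, 7.54 and 6.70 at 12 Gy. From 4 Gy on the lungs lay below 0 Gy without overlap. The change went from -1.45 ± 0.23 at 4 Gy to -2.75 ± 0.23 at 12 Gy (adjusted p = 0.00241 and 2.19e-06), with a trend of -2.88 ± 0.23 (-3.10 with slide as a fixed term, adjusted p = 0.0069). Liver Cxcr6 had a trend of -1.46 ± 0.32 (adjusted p = 0.00624), from 8.44, 7.33 and 7.66 to 6.57, 6.53 and 6.33, while its 12 Gy change of -1.33 ± 0.41 missed the threshold (adjusted p = 0.0684). A second Cxcr6 probe gave the same directions and was called in liver at 8 Gy (-1.60 ± 0.33) and 12 Gy (-1.74 ± 0.33), with a lung trend of -3.42 ± 0.18.

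Cxcl16, made by macrophages, dendritic cells and sinusoidal endothelium, lay within 11.34 to 12.27 in lung with a trend of -0.29 ± 0.17 (adjusted p = 0.195). In liver it read 8.74, 8.80 and 8.83 at 0 Gy and 8.15, 7.99 and 8.05 at 12 Gy, and every irradiated group lay below 0 Gy. The liver trend of -0.67 ± 0.09 had an adjusted p of 0.000105 but a fold below the threshold.

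Ccr2, the receptor that lets inflammatory monocytes leave the bone marrow, read 8.46, 8.35 and 7.48 in unirradiated lung and 6.75, 6.58 and 6.82 at 4 Gy. It read 6.50, 5.69 and 5.56 at 8 Gy and 5.68, 5.68 and 6.47 at 12 Gy, below all unirradiated lungs. The change was -1.38 ± 0.29 at 4 Gy (adjusted p = 0.0167), -2.18 ± 0.29 at 8 Gy (0.000218) and -2.15 ± 0.29 at 12 Gy (0.000168). The 4 Gy call was lost without mouse 1 (-1.19) or 11 (-1.25) at 0 Gy or mouse 14 (-1.31) at 4 Gy. Liver Ccr2 was well above background on 3 of 18 arrays and had a trend of -0.33 ± 0.26 (adjusted p = 0.503).

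Its ligands were not called at any dose. Ccl2, the main monocyte attractant, had a lung trend of 0.10 ± 0.26 and a liver trend of -0.88 ± 0.28 (adjusted p = 0.814 and 0.0577). Ccl7 and Ccl12, which bind the same receptor, gave lung trends of 0.01 ± 0.44 and 0.54 ± 0.24, with Ccl12 at 0.91 ± 0.28 at 12 Gy (adjusted p = 0.0344) and so under the fold threshold.

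Ccr8, found on regulatory and skin-homing T cells, was near background throughout. Lung 12 Gy, with 0 of 3 arrays well above background, was at least 1.20-fold lower than 0 Gy (fitted -1.35 ± 0.29, adjusted p = 0.00525), and its trend went from -1.10 to -0.09 without the 4 arrays of the dim slide and to -0.78 without 12 Gy mouse 16.

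Among ligands, Ccl5 had a called trend in both tissues that also passed with slide as a fixed term. Ccl5, released by T cells and NK cells, read 10.48, 10.16 and 9.88 in unirradiated liver and 10.02, 9.80 and 9.65 at 1 Gy. Liver then gave 9.85, 10.06 and 9.94 at 2 Gy, 9.70, 9.77 and 9.59 at 4 Gy, 9.04, 9.10 and 9.17 at 8 Gy and 8.30, 8.67 and 8.02 at 12 Gy. From 4 Gy on the livers lay below 0 Gy without overlap. The change was -1.07 ± 0.17 at 8 Gy (adjusted p = 0.00191, and -0.92, not called, without 0 Gy mouse 1) and -1.85 ± 0.17 at 12 Gy (1.64e-05). Its liver trend of -1.74 ± 0.14 was the one chemokine liver trend called with slide as a fixed term (-1.91, adjusted p = 0.00915).

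In lung Ccl5 read 13.72, 13.56 and 13.85 at 0 Gy, 12.40, 12.95 and 12.84 at 4 Gy, 11.60, 12.27 and 12.27 at 8 Gy, and 11.45, 12.09 and 11.29 at 12 Gy. Every irradiated lung lay below every unirradiated lung. The change was -1.66 ± 0.23 at 8 Gy and -2.10 ± 0.23 at 12 Gy (adjusted p = 0.000326 and 2.8e-05), and at 4 Gy the change of -0.98 ± 0.23 (adjusted p = 0.0343) was just short of the fold threshold. The trend was -2.06 ± 0.19 (-2.60 with slide as a fixed term, adjusted p = 0.0115).

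Ccl3 and Ccl4 come from macrophages and lymphocytes. Ccl3 was seen in lung only and fell there by at least 2.26-fold at 12 Gy (adjusted p = 0.00386, 0 of 3 arrays well above background). Its lung trend of -1.23 ± 0.24 was -0.76 without the 4 arrays of the dim slide. With slide as a fixed term that trend was -0.32 and not called (limma adjusted p = 0.988). Lung Ccl4 was lower by -1.02 ± 0.25 at 8 Gy (adjusted p = 0.0294) with a trend of -1.02 ± 0.21. Both Ccl4 values sit at the fold threshold, and the 8 Gy call was lost without any one of mice 1, 11 and 21 at 0 Gy or 5 and 15 at 8 Gy (-0.82 to -1.09), the trend call without mouse 1, 2, 13, 5 or 15 (-0.94 to -0.99). Ccl4 in liver had a trend of -0.69 ± 0.14 (adjusted p = 0.0046), not called. In lung, a second Ccl4 probe gave -0.94 ± 0.23 at 8 Gy and a trend of -0.97 ± 0.19, neither called.

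Cxcl9 and Cxcl10, interferon-induced ligands of Cxcr3, fell in both tissues. Liver Cxcl9 read 11.84, 10.87 and 10.87 at 0 Gy, 9.73, 9.91 and 10.69 at 8 Gy and 8.72, 9.60 and 8.49 at 12 Gy. Neither high dose overlapped with 0 Gy. At 12 Gy it was lower by -2.25 ± 0.40 (adjusted p = 0.00336), and the trend was -2.17 ± 0.31 (-2.22 with slide as a fixed term, adjusted p = 0.154). Lung Cxcl9 went from 7.55, 8.67 and 8.90 to 6.91, 7.26 and 6.91 at 12 Gy, a change of -1.35 ± 0.39 (adjusted p = 0.0227). That lung call was lost without mouse 11 (-1.20) or 21 (-1.09) at 0 Gy or mouse 6 (-1.29) or 26 (-1.28) at 12 Gy.

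Cxcl10 in liver was 9.38, 9.22 and 9.83 at 0 Gy, 7.18, 6.80 and 8.78 at 8 Gy and 7.57, 7.96 and 7.46 at 12 Gy. Those 2 doses lay below 0 Gy, and 1, 2 and 4 Gy overlapped with it. The 8 Gy change of -1.89 ± 0.53 was called (adjusted p = 0.0378), and that at 12 Gy, -1.81 ± 0.53, was not (0.0556). The 8 Gy call was lost without any one of the 0 Gy mice (-1.71 to -2.01) or without mouse 5 (-1.69) or 15 (-1.50) at 8 Gy. Its liver trend was -1.68 ± 0.44 (adjusted p = 0.0196).

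Lung Cxcl10 did not run one way with dose. It read 8.30, 8.66 and 8.13 at 0 Gy and 8.95, 9.20 and 8.79 at 2 Gy, above 0 Gy without overlap but not called (0.61 ± 0.28, adjusted p = 0.639). It then read 7.45, 7.03 and 6.59 at 8 Gy and 6.77, 6.88 and 7.24 at 12 Gy, changes of -1.34 ± 0.28 and -1.40 ± 0.28 (adjusted p = 0.011 and 0.00349). The 8 Gy call was lost without 0 Gy mouse 11 (-1.19) or 8 Gy mouse 25 (-1.12).

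**Figure D3:**
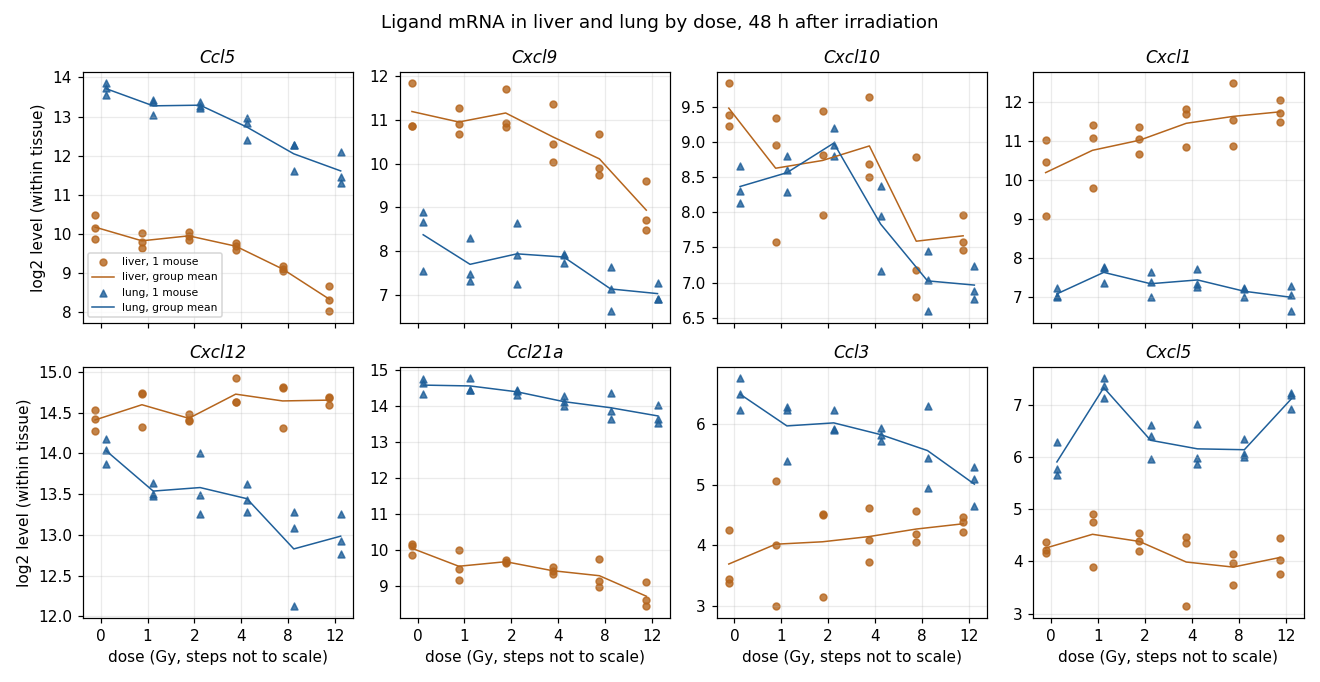
Level of 8 ligand genes (log2 intensity normalized within each tissue, vertical axes, which differ between panels) against dose in Gy (steps not to scale), with a point per mouse and lines through group means. Ccl5 falls from 10.17 to 8.33 in liver and from 13.71 to 11.61 in lung, Cxcl1 in liver climbs from 10.19 to 11.74, and lung Cxcl5 is highest at 1 Gy (7.32) and 12 Gy (7.11).

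Cxcl12 and its receptor Cxcr4 retain blood stem cells in marrow and guide lymphocytes. Cxcr4 was, by its brightest probe, seen in lung only, at 10.68, 10.49 and 10.67 without irradiation, 10, 9.66 and 9.73 at 8 Gy and 9.15, 9.63 and 9.32 at 12 Gy. From 2 Gy on, no lung overlapped with 0 Gy. The change reached -1.24 ± 0.17 at 12 Gy (adjusted p = 0.000173), with a trend of -1.15 ± 0.13 that was -1.03 and no longer passed with slide as a fixed term. The second Cxcr4 probe gave a lung trend of -0.94 ± 0.23 (adjusted p = 0.00504), below the fold threshold.

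Lung Cxcl12 read 14.04, 13.87 and 14.18 at 0 Gy, 13.08, 12.12 and 13.28 at 8 Gy, and 13.26, 12.92 and 12.77 at 12 Gy by its brightest probe, without overlap. The changes were -1.21 ± 0.26 and -1.05 ± 0.26 (adjusted p = 0.0124 and 0.0108). The 2 Cxcl12 probes disagreed. The other one, for another transcript, gave -0.05 ± 0.26 at 8 Gy, 0.11 ± 0.26 at 12 Gy and a lung trend of 0.07 ± 0.19. Calls of the brighter probe were lost without mouse 21 at 0 Gy (-1.13 and -0.97), without 8 Gy mouse 15 (-0.85) and without 12 Gy mouse 26 (-0.95). In liver the brighter probe differed by 0.24 ± 0.15 and 0.25 ± 0.15 at these doses and the other by 0.15 ± 0.11 and -0.02 ± 0.11, none called.

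Increases were called for 4 genes, of which Cxcl1, Cxcl5 and Cxcr1 act on neutrophils and Ccl28 does not. Cxcl1, made by hepatocytes, endothelium and macrophages to draw neutrophils, read 9.07, 10.46 and 11.03 in unirradiated liver, 9.80, 11.07 and 11.40 at 1 Gy and 10.65, 11.04 and 11.35 at 2 Gy. Higher doses gave 10.84, 11.82 and 11.68 at 4 Gy, 10.86, 11.54 and 12.47 at 8 Gy and 11.48, 11.71 and 12.03 at 12 Gy. Only the 12 Gy livers lay above all unirradiated ones, whose own range was the widest. No single dose was called (1.55 ± 0.52 at 12 Gy, adjusted p = 0.0897). The trend was called at 1.34 ± 0.41 (adjusted p = 0.0464), lost its call without any one of 13 of the 18 arrays (1.04 to 1.52), and was 0.48 with slide as a fixed term (adjusted p = 0.855). Lung Cxcl1 had a trend of -0.36 ± 0.19 (adjusted p = 0.168).

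Cxcl5, an epithelial ligand of Cxcr2, was seen in lung only. It read 5.77, 6.28 and 5.66 at 0 Gy, 7.12, 7.50 and 7.35 at 1 Gy, 6.06, 6.00 and 6.35 at 8 Gy and 6.91, 7.23 and 7.18 at 12 Gy. The 1 and 12 Gy lungs lay above 0 Gy without overlap, and the doses between them overlapped with it. At 12 Gy it rose by 1.20 ± 0.23 (adjusted p = 0.0024), while the larger 1 Gy difference of 1.42 ± 0.23 just missed the threshold among the calls of that dose (adjusted p = 0.0519).

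Cxcr1, a receptor on neutrophils, rose in lung at 12 Gy by 1.16 ± 0.29 (adjusted p = 0.0117), from 6.01, 6.56 and 5.64 to 6.91, 7.22 and 7.55, without overlap. Without 0 Gy mouse 21 the rise was 0.95 and not called (adjusted p = 0.0557). Cxcr2, the second neutrophil receptor, differed by 0.64 ± 0.27 (adjusted p = 0.103) and Cxcl2 by 0.92 ± 0.53 with overlap (adjusted p = 0.228). Ccl28, a mucosal epithelial ligand of Ccr10 and Ccr3, rose in lung at 12 Gy by 1.31 ± 0.41 (adjusted p = 0.0349), from 5.46, 5.87 and 4.57 to 6.87, 6.14 and 6.81, and lost its call without mouse 1 (1.37) or 21 (0.94) at 0 Gy or mouse 6 (1.18) or 26 (1.21) at 12 Gy. A second Ccl28 probe gave 0.95 ± 0.38 at 12 Gy (limma adjusted p = 0.0831), overlapped with 0 Gy and was not called. The 3 lung increases of Cxcl5, Cxcr1 and Ccl28 were seen at 12 Gy, the dose that lay wholly on the dim slide.

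Cxcl14 in liver was the last called gene. It was lower at 8 Gy, with 6.67, 6.49 and 4.87 against 7.26, 7.49 and 6.99, by -1.24 ± 0.37 (adjusted p = 0.0474), and not at 12 Gy (-0.19 ± 0.37, adjusted p = 0.843). A second Cxcl14 probe gave -0.09 ± 0.23 at 8 Gy (adjusted p = 0.85). Without 8 Gy mouse 25 the difference of the brighter probe was -0.67 and not called, and the call was also lost without any one of 13 other arrays (-1.11 to -1.36).

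Promoters are shown for the 3 CXC ligands whose mRNA moved most in liver, because Cxcl1 went up where Cxcl9 and Cxcl10 went down. Each is the 250 bases before the transcription start in RefSeq (GRCm38.p6), 5′ to 3′ on the gene's strand, with capitals marking matches to 3 motifs searched on both strands, namely the NF-kappaB consensus, paired GAAA (GAAA, 2 bases of any kind, GAAA, an interferon response core) and the STAT core (TTCNNNGAA). Cxcl1 lies at chr5:90890995-90891244 on the plus strand, Cxcl10 at chr5:92348890-92349139 and Cxcl9 at chr5:92328080-92328329, both on the minus strand.
Cxcl1: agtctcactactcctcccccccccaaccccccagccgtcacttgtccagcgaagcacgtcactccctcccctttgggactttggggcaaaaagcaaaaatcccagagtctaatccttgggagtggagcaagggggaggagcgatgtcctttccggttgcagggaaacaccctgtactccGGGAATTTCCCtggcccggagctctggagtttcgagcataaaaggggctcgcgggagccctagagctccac
Cxcl10: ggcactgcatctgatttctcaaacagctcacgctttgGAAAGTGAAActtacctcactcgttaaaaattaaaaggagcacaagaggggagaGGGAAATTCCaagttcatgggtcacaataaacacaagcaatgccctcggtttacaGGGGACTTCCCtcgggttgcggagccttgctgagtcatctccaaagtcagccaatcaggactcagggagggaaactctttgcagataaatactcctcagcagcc
Cxcl9: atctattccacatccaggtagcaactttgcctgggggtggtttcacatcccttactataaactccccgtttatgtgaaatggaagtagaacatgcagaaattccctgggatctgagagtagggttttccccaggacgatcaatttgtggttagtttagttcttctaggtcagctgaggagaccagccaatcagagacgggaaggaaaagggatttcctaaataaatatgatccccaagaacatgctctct

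Cxcl1 holds 1 NF-kappaB place, 71 to 61 bases before the start (overlapping matches were counted as 1 place). Cxcl10 holds 2 NF-kappaB places, 159 to 150 and 104 to 94 bases before the start, and 1 paired GAAA at 213 to 204. Cxcl9 holds none of the 3 in these 250 bases, and matches of different motifs did not overlap in these promoters. Of 27018 genes with such a promoter, 8.24% hold the NF-kappaB match, 3.46% paired GAAA and 8.13% the STAT core. Among the 33 chemokine and receptor genes with one, 8 (24.2%), 3 (9.09%) and 4 (12.1%) do. A match is a run of letters and says nothing of binding.

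Because whole tissue was measured, fewer cells of a type and less RNA per cell cannot be told apart for any of these genes. Leukocyte markers moved alongside. For the marker counts below, the share of all probes with a trend called lower was 4.35% in lung and 1.14% in liver. In lung, the trend was called lower for 11 of 13 T cell markers (median -2.53), 11 of 13 B cell markers (median -3.3) and 9 of 9 NK cell markers (median -1.92), and higher for 0 of them. Mean B cell marker level ran from 9.61 to 10.5 at 0 Gy to 6.73 to 6.88 at 12 Gy, T cell markers from 9.88 to 11.77 to 7.4 to 7.84, and NK cell markers from 9.02 to 9.03 to 6.98 to 7.51. The T cell value of 11.77 was mouse 21, and the other unirradiated lungs read 9.88 and 10.26. Marker counts and medians were not recomputed without that mouse. In liver 5 of 12 T cell, 6 of 12 B cell and 3 of 8 NK cell markers were called lower (medians -0.73, -0.94 and -0.68), and Bcl11b, Blk and Eomes were never well above background. Liver B cell markers went from 6.29 to 6.6 down to 4.97 to 5.15, T cell markers from 7.41 to 7.63 down to 6.52 to 6.74. Their part in the fall of the receptors and of Ccl5 was not tested.

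Dendritic cell markers were called lower for 3 of 7 in each tissue (medians -0.86 in liver and -0.8 in lung), and monocyte markers for 2 of 8 in lung and 0 of 8 in liver. Of 12 neutrophil markers, 3 were called lower and 1 higher in lung (median 0.18) and 1 lower in liver (median 0.13), with lung means of 9.19 to 9.64 at 0 Gy and 9.28 to 9.7 at 12 Gy, beside the rise of Cxcr1. Kupffer cell markers gave 0 of 11 in both tissues, while their mean in liver went from 11.48 to 11.6 at 0 Gy to 10.85 to 10.99 at 12 Gy. Alveolar macrophage markers were called lower for 1 of 9 in each tissue and higher for 1 in lung, endothelial markers lower for 1 and higher for 1 of 10 in liver and higher for 1 of 10 in lung, and lung epithelial markers lower for 1 of 10 in lung. Platelet and fibroblast lists gave 0, although the 5 platelet markers had a median trend of -0.92 in lung (-0.05 in liver). Hepatocyte markers in the lung samples varied from a mean of 6.89 to 12.78 (highest in 4 Gy mouse 24) and were called higher for 1 of 15, beside lung values of Cxcl1, Cxcl9 and Cxcl10, whose probes read higher in liver. Its part in those values was not tested.

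Relatives of the 4 classes and the genes around the receptors were read as lists. Beside the list counts that follow, 4.35% of all probes in lung and 1.14% in liver had a trend called lower. Called higher were 2.7% and 0.892%, and the median trend of all probes was 0.081 and 0.0039. Of 11 other chemokine genes, 3 had a called liver trend, all lower, namely Xcl1 (-1.46 ± 0.16), which T and NK cells release for Xcr1 dendritic cells, and the scavenging receptors Ackr2 (-1.01 ± 0.13) and Ackr4 (-1.45 ± 0.24). In lung 3 were lower, namely Xcl1 (-2.31 ± 0.21), the fractalkine receptor Cx3cr1 (-1.22 ± 0.29) and the platelet chemokine Ppbp (-1.06 ± 0.28). The list medians were -0.70 in liver and -0.47 in lung.

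Signal transducers below the receptors were called lower for 8 of 37 in lung (median -0.52) and 2 of 36 in liver (median -0.34). The lung 8 were the inhibitory G protein subunit Gnai2 (-1.41), the receptor kinase Grk2 (-1.29), the kinase subunit Pik3cg (-1.10), Dock2 (-1.25) and Rac2 (-1.66), which drive leukocyte migration, the Src family kinase Fgr (-1.36), and the G protein brakes Rgs1 (-1.25) and Rgs2 (-1.16). In liver Rac2 (-1.17) and Rgs2 (-1.02) were.

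Of the cytokines and factors that induce chemokines, 4 of 24 were lower in lung, namely Ifng (-1.51), which induces Cxcl9 and Cxcl10, Irf8 (-1.05) and the lymphotoxins Lta (-1.44) and Ltb (-3.68 ± 0.43), which sustain Cxcl13 and Ccl21. In liver 4 of 21 were called, among them Ltb (-2.08 ± 0.22) and Il1b (-1.11 ± 0.28), which were lower, and Cebpb (1.07 ± 0.18), which was higher. The medians were -0.27 in lung and -0.18 in liver.

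Mouse 21 of the 0 Gy lungs carried other signals together with its Ccr9. Ccl25, the Ccr9 ligand of thymic and gut epithelium, read 12.38 there against 9.49 to 10.27 in the other 17 lungs, and Ccl7 read 10.61 against 7.26 to 8.69. Its T cell marker mean of 11.77 was the highest of the 0 Gy lungs. Genes of immature thymocytes and thymic epithelium, a list drawn up after these values were seen, were high as well, with Dntt at 13.24 (others at most 8.27), Prss16 at 10.56 (at most 6.42) and Rag2 at 8.78 (at most 6.48), while Rag1, Ptcra and Psmb11 were not well above background there. Their part in the Ccr9 and Ccl25 values was not tested.

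**Figure D4:**
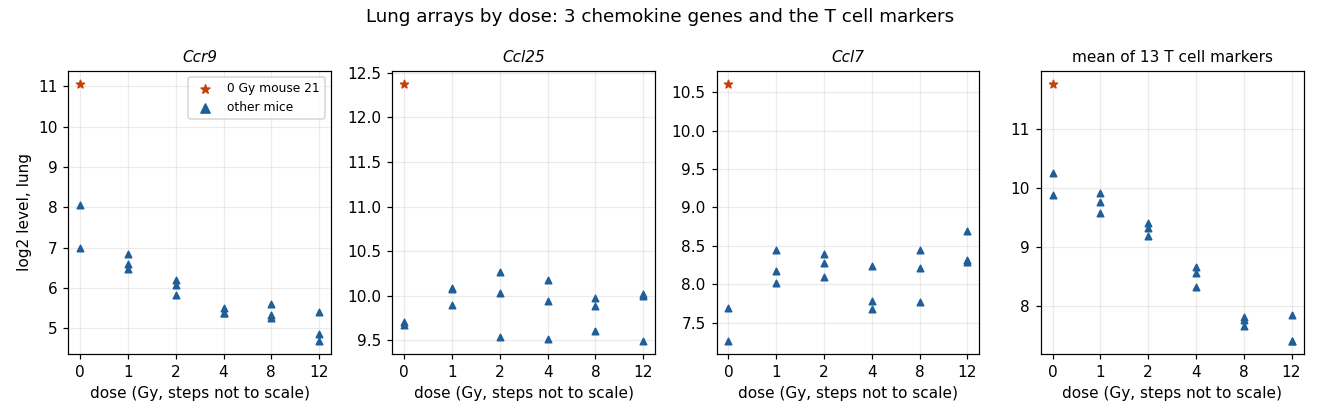
Lung level of Ccr9, Ccl25 and Ccl7 and the mean of 13 T cell markers (log2 intensity, vertical axes, which differ between panels) against dose in Gy (steps not to scale), with a point per mouse and the 0 Gy mouse 21 as a star. The star reads 11.07, 12.38, 10.61 and 11.77 and lies above every other lung in each of the 4 panels.

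The dose trend differed between the tissues for 8 of 47 genes (17%), always with lung lower, where 3.68% of all 47376 probes had a lower and 3.56% a higher trend in lung. Arrays of both tissues were normalized together for this test. Differences of lung minus liver were -2.76 ± 0.63 for Cxcr5, -1.84 ± 0.45 for Ccr8, -1.65 ± 0.47 for Ccr2, -1.57 ± 0.46 for Ccl3, -1.51 ± 0.42 for Cxcl1, -1.47 ± 0.39 for Cxcr6, -1.37 ± 0.30 for Cxcl12 and -1.08 ± 0.34 for Cxcr4 (limma adjusted p from 0.00178 to 0.0269). Ccl3 and, by its brightest probe, Cxcr4 were well above background on no liver array, and liver Cxcr5 and Ccr2 lay near it at most doses, so their liver trends are fitted on values near background. Ccr8 was well above background on 6 liver and 4 lung arrays, so both of its trends are fitted on such values. Cxcl1 is on the list through its rise in liver. The second Cxcl12 probe gave 0.07 ± 0.22, the second Cxcr4 probe -0.33 ± 0.72 (adjusted p = 0.804) and the second Cxcr6 probe -1.11 ± 0.34. With slide as a fixed term, 0 of the 8 remained called.

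For Ccr7, Cxcr3, Cxcl9 and Cxcl10 no difference in trend was detected, with values of -0.56 ± 0.61, -0.68 ± 0.40, 0.76 ± 0.42 and -0.35 ± 0.51 (adjusted p = 0.585, 0.255, 0.228 and 0.7). Ccl5 differed by -0.75 ± 0.25 (adjusted p = 0.0336), below the fold threshold. Ccl19, at 0.97 ± 0.27 (adjusted p = 0.0123), became called at 1.20 without mouse 21.

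Unirradiated lung and liver differed in the level of many chemokine genes. Of 47 genes, 23 (48.9%) were called higher in lung and 8 (17%) higher in liver, where 18.3% of all probes were higher in lung and 17.3% higher in liver. The median difference was 0.83 against -0.0516 over all probes. Among the calls, 8 were of genes with 0 arrays well above background at 0 Gy in 1 of the tissues. The 11 genes seen in lung only entered through lung, so the counts and the median are not independent of how the genes were chosen. On the common scale, Cxcl15 (lungkine), an airway epithelial ligand, read 14.35, 14.49 and 14.08 in lung and 4.12, 4.47 and 3.99 in liver, where no array was well above background, at least 906-fold higher. Cxcl17, a mucosal ligand, was at least 32.5-fold higher, Cxcr4 at least 43.8-fold and the eosinophil attractant Ccl11 at least 17-fold. The second Cxcr4 probe gave at least 7.14-fold. Cxcl14 differed by 5.96 ± 0.35 by its brightest probe, but its second probe was lower in lung (-0.88 ± 0.26, adjusted p = 0.00547), so its 2 probes disagreed. Higher in lung, too, were Ccl17, a dendritic cell ligand of Ccr4, by 5.19 ± 0.59, and Ccl21a by 3.79 ± 0.21.

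Among leukocyte receptors seen in both tissues, Ccr7 (3.50 ± 0.35), Cxcr5 (3.05 ± 0.30), Ccr6 (2.56 ± 0.29) and Ccr2 (1.98 ± 0.41) were higher in lung. Cxcr3 and Cxcr6 showed no detected difference (0.02 ± 0.26 and 0.52 ± 0.33, adjusted p = 0.964 and 0.197). Ccr9 was 1.74 ± 0.55 higher, but 0.42 and not called without mouse 21. Ccl7 (2.05 ± 0.56) and Cxcl13 (1.94 ± 0.74) also lost their calls without it, at 1.05 and 1.34, and Ccl25 went from -0.24 to -1.23 and became called. Cxcl13 likewise lost its call without mouse 11 (2.20).

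Also higher in lung were Ccl12 (3.32 ± 0.43), Ccl6 (2.98 ± 0.20), Ccl5 (2.75 ± 0.21), Ccl8 (2.69 ± 0.47) and Cxcl16 (1.86 ± 0.18). Ccl3 was at least 2.90-fold, Cxcr1 at least 2.15-fold, Cxcl5 at least 1.96-fold and Ccl1 at least 1.49-fold higher, of which Cxcr1 and Cxcl5 lost their calls without mouse 11 (0.70 and 0.82). Ccl1 passed the filter through 1 array, an unirradiated lung, so its difference is not independent of how it was chosen. Its fitted value ran from 0.33 to 1.94 under 27 alternatives, and 6 of them lost the call.

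Higher in liver were Cxcl1 (9.81, 11.05 and 11.55 against 6.48, 6.51 and 6.69 in lung, -4.24 ± 0.36), Cxcl9 (-3.88 ± 0.38), the macrophage ligand Ccl9 (14.17, 14.20 and 14.21 against 11.03, 11.35 and 11.45, -2.92 ± 0.22), the eosinophil ligand Ccl24 (-2.56 ± 0.24) and Cxcl10 (-2.37 ± 0.41). The eosinophil receptor Ccr3 (-1.59 ± 0.27) and Ccl27a (-1.25 ± 0.13) were higher in liver too. For Cxcl1 and Ccl9 the tissues did not overlap. The second Cxcl12 probe was higher in liver (-2.60 ± 0.21), whereas the brighter one was not called (-0.63 ± 0.24), and another Ccl25 probe was at least 4.12-fold higher in liver. Of the other 3 Ccl27a probes, 1 gave -1.26 ± 0.14, whereas 2 gave 0.62 ± 0.17 and 0.32 ± 0.16, against the direction of the brightest one, and Ccl27a has near-identical copies that the probes may also read.

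**Figure D5:**
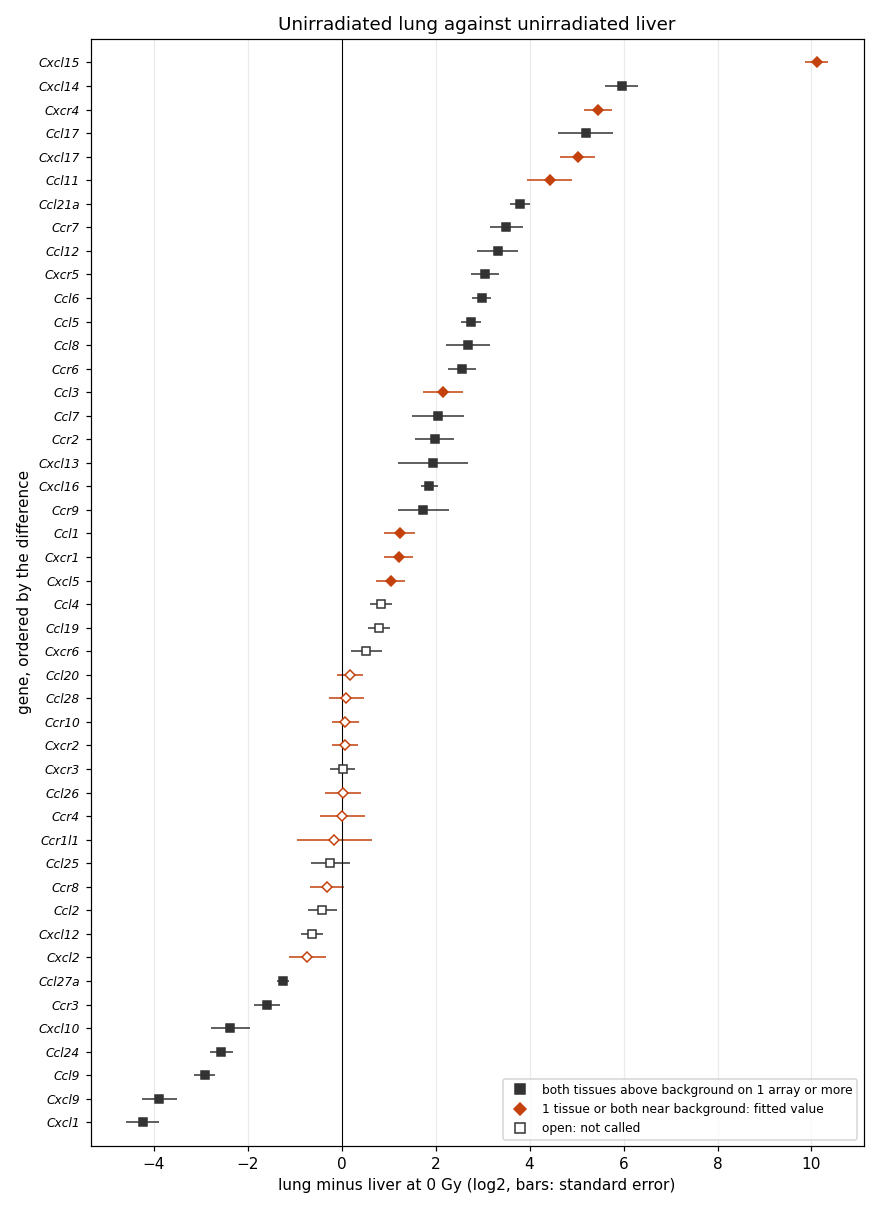
Difference between unirradiated lung and liver for the chemokine and receptor genes reported singly (log2, lung minus liver, horizontal axis; bars are standard errors of the fit), ordered by value, with filled symbols where called and diamonds where at least 1 tissue was near background and the value is only fitted. Cxcl15 lies at 10.11 and Cxcl1 at -4.24, and 23 filled symbols lie right of 0.

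The other genes well above background on all 36 arrays had no called change with dose. Ccl6, a macrophage ligand, had trends of -0.14 ± 0.16 in liver and -0.31 ± 0.19 in lung. Ccl9 had -0.10 ± 0.15 and 0.44 ± 0.18, Ccl24 -0.26 ± 0.12 and 0.56 ± 0.24, Ccl25 -0.16 ± 0.10 and -0.49 ± 0.39, and Ccl27a 0.19 ± 0.16 and 0.21 ± 0.15, none of them called (adjusted p from 0.0674 to 0.742). Lung Ccl24 at 12 Gy differed by 0.86 ± 0.29 (adjusted p = 0.0471), below the fold threshold.

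The ligands Cxcl15, Cxcl17, Ccl17, Ccl8 and Ccl11 also gave no call with dose in lung. Cxcl15 had a lung trend of -0.72 ± 0.15 (adjusted p = 0.00214, with 1 of the 12 Gy arrays left out as an outlier spot, n = 2), Cxcl17 one of -0.30 ± 0.31 and Ccl17 one of -0.78 ± 0.22 (adjusted p = 0.0103), all short of the fold threshold. Lung Ccl8, a monocyte ligand, read 10.26, 11.72 and 10.62 at 2 Gy against 8.90, 10.24 and 9.56 at 0 Gy, a difference of 1.30 ± 0.42 that did not pass (adjusted p = 0.318), and Ccl11 differed by at most 0.71 ± 0.32. The remaining genes, Ccl1, Ccl26, Ccr3, Ccr4, Ccr10 and Ccr1l1, lay near background in most groups and were called at no dose.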

How the data were processed

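Liver and lung mRNA was measured on 36 1-colour Agilent arrays, 18 per tissue. The authors deposited scanner intensity values (Agilent Feature Extraction 11.5.1.1) for each spot. Depth in reads does not apply, and 3 arrays per group limit the precision. Median spot and background intensities were corrected by normexp (offset 0) and quantile-normalized per tissue (both tissues together for comparisons between them) in limma 3.58.1 under R 4.3.3. Control spots and outlier flags were left out. Probes that cleared background on 1 or more arrays were fitted with dose groups or a linear dose trend, with Benjamini-Hochberg adjustment. A gene's probe is the one with the highest mean. In a group with 0 arrays well above background, levels below the lowest one well above background on an array were raised to it. Folds from such groups are marked "at least". They are no strict limits, because that lowest level can come from any probe. Genes named are those called, those above background on all 36 arrays and the extremes between tissues, and the rest were named to account for every gene. Members and lists were chosen with earlier results of these data known. Of 56605 probes, 9009 carry Ensembl names that were not mapped. The fits were tested on simulated data. Arrays of a group come from separate mice, and p-values measure the spread between them. Alternatives were other background corrections, scalings, filters, slide terms and arrays left out. The 36 miRNA arrays were not used. Some single genes are counted in totals but not reported here.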

Additional observations from a re-analysis of the deposited data

Results flagged for a closer look

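The dose trend of 8 chemokine and receptor genes differed between lung and liver by the limma test of the difference itself, and each was lower in lung. The differences, lung minus liver as log2 change over 12 Gy, were -2.76 for Cxcr5, -1.84 for Ccr8, -1.65 for Ccr2, -1.57 for Ccl3, -1.51 for Cxcl1, -1.47 for Cxcr6, -1.37 for Cxcl12 and -1.08 for Cxcr4. The call was lost for Ccl3 without 12 Gy mouse 26 (-1.42), for Ccr2 without 12 Gy mouse 6 (-1.48) and for Cxcr4 without 12 Gy mouse 6 (-0.94) or 16 (-1.02). With slide as a fixed term, 0 of the 8 remained called. The second Cxcl12 probe gave 0.07 ± 0.22, and neither it nor the second Cxcr4 probe was called.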

How the results depend on the processing

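Of 3452 values of single genes under alternatives, 3181 kept their call, 271 lost it and 0 changed sign. Most of these alternatives left out 1 array or 1 sample number and so shared nearly all data with the main fit. Slide as a fixed term could not be fitted for lung 2 to 12 Gy against 0 Gy and is absent from the tally there. Counts of called genes moved as follows. With a normexp offset of 50, liver gave 0 at 2 Gy, 1 at 4 Gy, 3 at 8 Gy, 5 for the trend and 5 at any dose, and lung 1 at 1 Gy and 12 at any dose. Processed signals gave 0 at 2 Gy and 3 at 8 Gy in liver. The authors' value table and no filter on dim probes each gave 0 at 2 Gy in liver, joint normalization 2. Requiring 3 arrays above background gave 2 at 2 Gy in liver and 1 at 1 Gy in lung. Without background correction liver gave 1 at 4 Gy and 6 at any dose, lung 3 at 1 Gy, and the trend difference 5. Normexp with 75th percentile scaling gave 2 at 1 Gy in lung, and averaged probes and a variance trend 1 each.

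With slide as a fixed term liver gave 0 at 4 Gy, 1 at 8 Gy, 2 at 12 Gy, 1 for the trend and 2 at any dose, lung 1 at 1 Gy and 6 for the trend, and the trend difference 0. As a random block it gave lung 1, 0, 3, 7 and 11 from 1 to 12 Gy and 11 at any dose. The cause was not tested.

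Leaving out 1 array at a time gave, in liver, 0 to 0 at 1 Gy, 0 to 2 at 2 Gy, 1 to 3 at 4 Gy, 3 to 6 at 8 Gy, 6 to 9 at 12 Gy, 6 to 10 for the trend and 7 to 10 at any dose. In lung it gave 0 to 2, 2 to 3, 6 to 7, 9 to 12, 15 to 21, 14 to 16 and 15 to 21. The trend difference ran from 6 to 9 and the 0 Gy difference from 27 to 31. Liver and lung arrays share sample numbers, but over 18 such pairs the correlation of their deviations from group means ran from -0.142 to 0.251 (median 0.024). With that number as a replicate block, pairing the tissues, 8 genes differed in trend and 31 at 0 Gy, the same genes as without it. Dim probes limit what liver can show, where 11 of the 47 genes were well above background on no array by the probe used.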
